A study of Mus musculus with 16 samples.

Results

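Myh3, Myl4 and Tnnt2 encode sarcomere proteins that skeletal muscle makes before birth and again in regenerating fibres. They are 3 of the 831 genes in the deposited expression table, found by matching its Ensembl identifiers to gene symbols. RNA from whole tibialis anterior, a fast muscle of the lower hind limb, was sequenced in 16 libraries from mice at postnatal day 30. There were 4 libraries in each of 4 genotypes: Control, labelled wild type; miR-133b-/-, which lacks the microRNA; mdx, labelled mdx-/-, which carries a mutation of the dystrophin gene; and mdx/miR-133b-/-, which carries both. No source used here gives the strain, the mdx allele, the sex of the animals or whether any were pooled. The design allows the response of the 3 genes to dystrophin loss to be read with and without miR-133b.

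The sarcomere is the contractile unit of striated muscle, in which thick filaments of myosin pull on thin filaments of actin. Its proteins come as families of isoforms that are exchanged as a muscle matures, so embryonic, slow and fast fibres use different genes. In adult muscle the embryonic forms return for a short time in newly formed fibres, after satellite cells have fused to replace damaged ones. Muscle without dystrophin goes through repeated damage and repair, and transcripts of embryonic isoforms are widely read as a sign of recent repair. Myl4 and Tnnt2 are also known as heart genes: Myl4 is expressed in the atria and Tnnt2 encodes the cardiac form of troponin T.

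The microRNA absent from 2 of the genotypes is shown for its seed, the stretch by which it pairs with target transcripts. It lies on chromosome 1 of GRCm38, and RefSeq gives the mature 3p strand, the one held to guide repression, as follows, 5′ to 3′ with bases 2 to 8, the seed, in capitals.
mmu-miR-133b-3p: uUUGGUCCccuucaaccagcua
The complement of that seed, GGACCAA, was searched in the annotated 3′ UTRs of the 3 genes. None holds it in any annotated coding transcript, the longest UTRs being 125 bases in Myh3, 406 in Myl4 and 188 in Tnnt2. Of 780 listed genes with an annotated 3′ UTR, whose longest UTRs have a median of 1415 bases, 11.4% hold it.

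The listed genes are a selection. Every one of the 831 had a mean in mdx/miR-133b-/- at least 1.72-fold above or below its mean in miR-133b-/-, so the contrast of those genotypes is given here as values only. Comparisons that use either of these groups share libraries with the selection. The list also has a floor that bears on every comparison with Control: no listed gene has a mean below 50.1 scaled reads over the 16 libraries. The Control means of the members, 45.7 for Myh3, 38.2 for Myl4 and 24.4 for Tnnt2, are under that floor, so a gene at their Control level is listed only if it is higher in some other library. Each value is a gene's read count after the authors' scaling, with a single factor for a whole library, and is called scaled reads here. A library had between 2356990 and 6000033 unscaled reads in the listed genes, and its full depth is unknown. The members had from 17 (Tnnt2) to 10679 (Myh3) unscaled reads in a library. Adult fast-fibre genes fit the labelled tissue: 4 of the 8 fixed markers are listed, and Myh4, the fast IIb myosin, had from 146677 to 498803 scaled reads. No gene of the heart, satellite cell or smooth muscle marker lists is listed, so these were not analysed here. Neither the dystrophin gene nor miR-133b is among the genes analysed, so no listed gene checks the genotypes.

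Myh3 is the embryonic myosin heavy chain, the motor of the thick filament in the first fibres to form. The gene (ENSMUSG00000020908) spans 67078300 to 67102291 on the plus strand of chromosome 11, in a cluster of myosin heavy chain genes with similar sequences, so reads shared with its relatives make its value uncertain. In Control the libraries stood at 48.6, 61.9, 35.8 and 36.6 scaled reads for replicates 1 to 4. In miR-133b-/- they stood at 131, 33.5, 30.9 and 30.8. In mdx they stood at 1541, 3353, 4336 and 902. In mdx/miR-133b-/- they stood at 4896, 336, 1180 and 1492.

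Every library with the mdx mutation lay above every library without it. Separation of 1 genotype from another was common in the list. All 4 values lay above all 4 Control values in 46.2% of listed genes for mdx and in 44.9% for mdx/miR-133b-/-. In mdx/miR-133b-/- against miR-133b-/-, 47.9% separated in the same way. The share of listed genes in which all 8 libraries with the mutation lie above the other 8 was not computed. This limit holds for Myl4 and Tnnt2 below as well. The lowest Myh3 value with the mutation, in mdx/miR-133b-/- replicate 2, was 2.56 times the highest of the other 8, miR-133b-/- replicate 1. Within the 8 libraries with the mutation the values were wide apart, and the ranges of mdx and mdx/miR-133b-/- overlapped.

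Myl4 is an essential light chain that sits on the lever arm of myosin, made in embryonic skeletal muscle and in the atria. The gene (ENSMUSG00000061086) spans 104550663 to 104595753 on the plus strand of chromosome 11. Control libraries stood at 34.3, 39.2, 31.4 and 47.8 scaled reads. Those of miR-133b-/- stood at 45, 46.4, 30.2 and 51.2. Those of mdx stood at 500.9, 702, 653 and 304. Those of mdx/miR-133b-/- stood at 1331, 156, 332 and 301.

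The libraries with the mutation were again all above those without it, by 3.06-fold at the narrowest gap. Replicate 1 of mdx/miR-133b-/- was the highest of the 16 and replicate 2 of that genotype the lowest of the 8 with the mutation, as for Myh3.

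Tnnt2, cardiac troponin T, ties the troponin complex to tropomyosin on the thin filament and is the form of embryonic skeletal muscle as well as heart. The gene (ENSMUSG00000026414) spans 135836354 to 135852260 on the plus strand of chromosome 1. It was the lowest of the 3, with 22.9, 34.7, 12.4 and 27.6 scaled reads in Control. It had 21, 23.6, 18.4 and 15.2 in miR-133b-/-, and 146, 227, 298 and 107 in mdx. In mdx/miR-133b-/- it had 531, 92.1, 149.6 and 119.8. The libraries with and without the mutation did not overlap here either, and the narrowest gap, 2.65-fold, lay between mdx/miR-133b-/- replicate 2 and Control replicate 2.

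**Figure D1:**
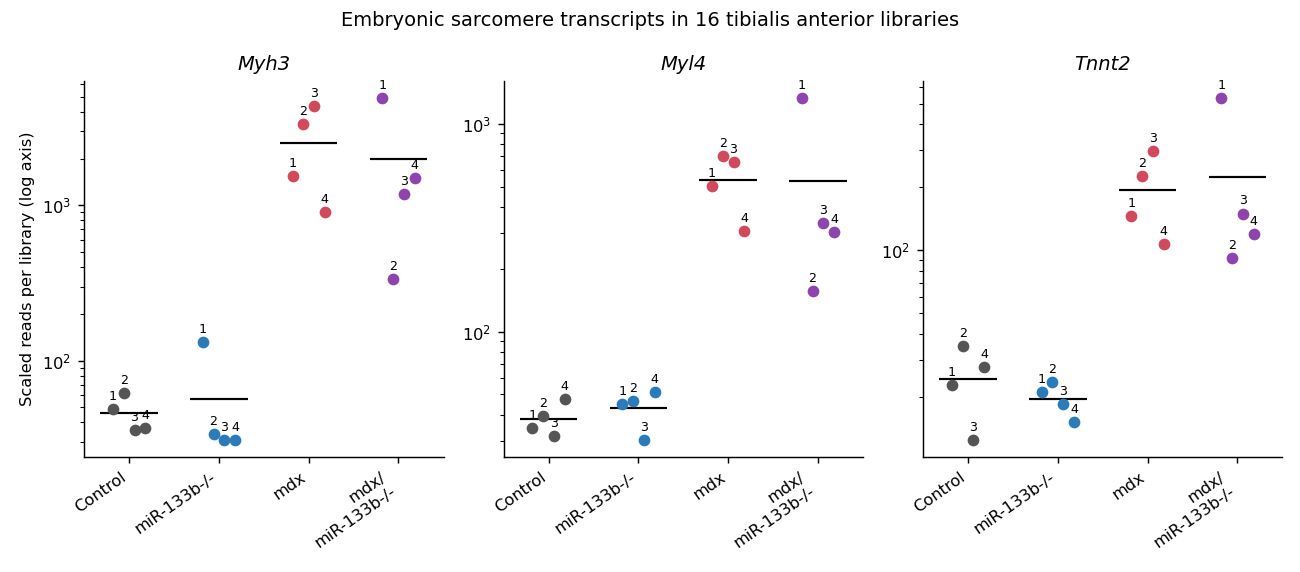
Scaled reads of Myh3, Myl4 and Tnnt2 (vertical log axes) in each of the 16 libraries, by genotype; each point is 1 library, numbered by replicate, and the line is the arithmetic mean of 4. In each panel the 8 libraries with the mdx mutation lie above the other 8, and mdx/miR-133b-/- replicate 1 is the highest. The share of listed genes that separate in this way was not computed, and the Control means of these genes are under the floor of the list.

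The sequence just before the annotated start is shown for Myh3 and Tnnt2, since the members were high in the same libraries and coding transcripts begin at these starts, 3 of 3 for Myh3 and 5 of 12 for Tnnt2 within 100 bases. Each is the 250 bases before a RefSeq start (GRCm38), chr11:67078050-67078299 for Myh3 and chr1:135836084-135836333 for Tnnt2, plus strand, 5′ to 3′. RefSeq gives 1 start for Myh3 but 2 for Tnnt2, and only the Tnnt2 start within 100 bases of the gene's annotated start is used. Most of the 12 coding transcripts of Tnnt2 begin further on, up to 4521 bases, and the sequence before those is not shown. Capitals mark matches, on either strand, to any of 5 motifs: the E-box CANNTG, bound by myogenic factors such as MyoD and myogenin; the TATA box TATAAA; the MCAT element CATTCC, bound by TEAD factors; the MEF2 site; and the CArG box.
Myh3: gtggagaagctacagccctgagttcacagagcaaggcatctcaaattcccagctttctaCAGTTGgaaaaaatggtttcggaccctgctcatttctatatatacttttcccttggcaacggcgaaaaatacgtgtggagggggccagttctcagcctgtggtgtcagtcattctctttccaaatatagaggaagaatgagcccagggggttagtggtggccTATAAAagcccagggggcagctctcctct
Tnnt2: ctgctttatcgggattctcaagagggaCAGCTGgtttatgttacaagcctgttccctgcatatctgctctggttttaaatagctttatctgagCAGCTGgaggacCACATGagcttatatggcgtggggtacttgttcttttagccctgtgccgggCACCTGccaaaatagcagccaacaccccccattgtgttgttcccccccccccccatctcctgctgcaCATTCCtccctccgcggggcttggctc

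Myh3 has 1 E-box, at position -191 counted from the start, and a TATA box at -29. The Tnnt2 window shown has 4 E-boxes, at -223, -157, -145 and -94, and an MCAT element at -27. Over the 32851 RefSeq windows of the same length, 66.2% hold an E-box, 3.83% at least 4 of them, 12.4% a TATA box and 12.6% an MCAT element. Neither window holds a MEF2 site or a CArG box, which 2.92% and 1.47% of windows hold. The matches do not overlap each other, and a match describes letters, not binding. The window of Myl4 holds none of the 5 motifs, but only 1 of its 5 annotated coding transcripts begins there, and the next begins 24783 bases further on, so it is not printed.

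Loss of dystrophin is read from mdx against Control, where all 3 genes were higher. With Control means under the floor of the list, the direction is partly set by the selection, and the tests are given with that limit. Myh3 rose 46.5-fold on the log2(value + 1) scale of the fit (log2 difference 5.54, SE 0.62, limma adjusted p = 6.2e-06). Its arithmetic means were 45.7 ± 12.3 and 2533 ± 1588 scaled reads (SD, n = 4 each), a ratio of 55.4. Myl4 rose 13.3-fold on the scale of the fit (log2 difference 3.73, SE 0.44, limma adjusted p = 8.23e-06). Its means were 38.2 ± 7.15 and 539.9 ± 179, a ratio of 14.1. Tnnt2 rose 7.58-fold on that scale (log2 difference 2.92, SE 0.46, limma adjusted p = 6.82e-05). Its means were 24.4 ± 9.36 and 194 ± 85.3, a ratio of 7.97.

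Against this, 44.5% of all listed genes were called higher in the same comparison. Among the 141 listed genes with a Control mean under the floor, members included, 127 (90.1%) were called higher and 0 lower by limma, against 35.2% called higher of the other 690. A rise by itself therefore does not set the 3 genes apart in this list. To reach the floor, given their 8 libraries without the mutation, the 8 with it needed a mean of 49.0 scaled reads for Myh3, 59.4 for Myl4 and 78.1 for Tnnt2. Their means were 2255, 534.9 and 209, and the lowest single libraries 336, 156 and 92.1. The median log2 difference of all listed genes was 0.44, and the members ranked 1 (Myh3), 10 (Myl4) and 22 (Tnnt2) by log2 difference. These ranks hold within a list where genes low in Control are present mainly if they are higher elsewhere. When the libraries were rescaled by relative log expression over the listed genes, that median moved to 0.09, and the members, at 5.19, 3.38 and 2.57, were still called. In bulk tissue, fewer cells of a type and less RNA per cell cannot be told apart. Since no label says that each library is a separate animal, the p-values cover the spread among these samples only, and part of it may be technical.

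The 3 genes did not rise by the same factor. The log2 ratio of Myh3 to Myl4 within a library was 0.24 ± 0.45 across the 4 Control libraries and 2.04 ± 0.56 across the 4 mdx libraries (SD). Myh3 thus rose 3.50 times as much as Myl4, and all 4 mdx ratios (1.56 to 2.73) lay above the Control ratios (-0.38 to 0.65). An exact two-sided permutation test gave p = 0.0286, the smallest that 4 against 4 libraries allow, and 0.0429 adjusted over the 3 pairs of genes. The ratio of Myh3 to Tnnt2 rose 6.14-fold with the same p-values, again with no overlap (0.39 to 1.46 in Control, 3.07 to 3.88 in mdx). Tnnt2 against Myl4 differed by -0.81 on the log2 scale, and did not pass (exact permutation p = 0.0571, adjusted 0.0571).

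**Figure D2:**
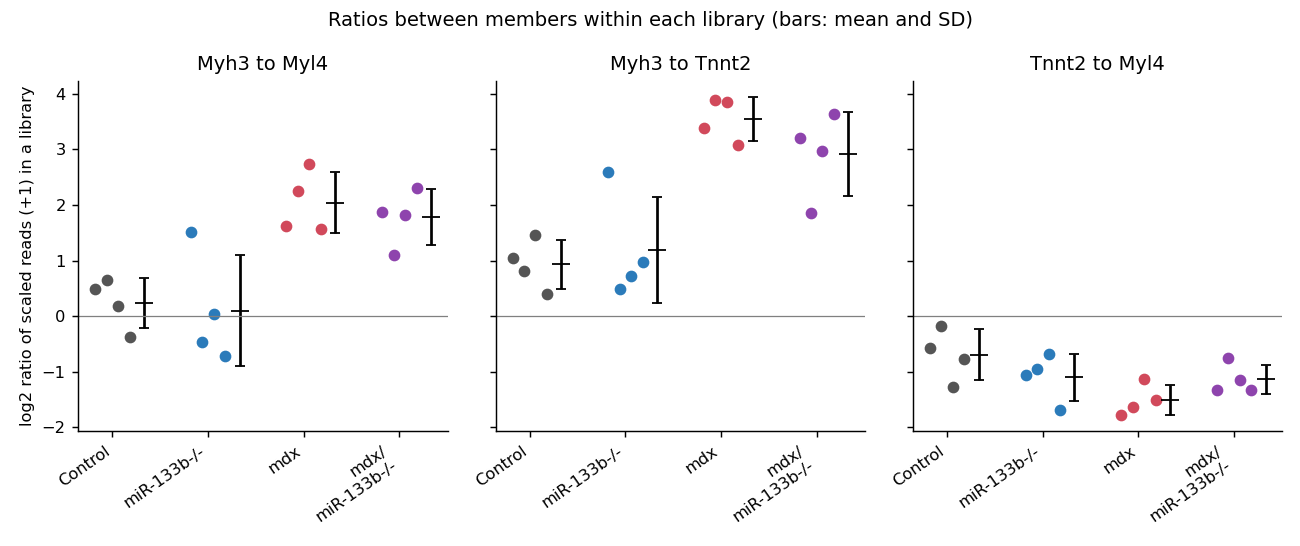
log2 ratios between 2 members within a library (vertical axis, from scaled reads + 1) for each genotype; points are libraries, bars the mean and SD of 4. Ratios of Myh3 to Myl4 and to Tnnt2 are higher in all 4 mdx libraries than in all 4 Control libraries, and miR-133b-/- replicate 1 stands above its group in both.

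Levels of different genes were compared per kilobase of merged annotated exons, which total 6057 bases for Myh3, 4637 for Myl4 and 7752 for Tnnt2. The Myl4 and Tnnt2 totals include retained introns. They exceed the longest annotated transcripts, of 3273 and 3330 bases, by far more than the Myh3 total does (6031). Levels of Myl4 and Tnnt2 per kilobase may thus be understated, and the order of the genes depends on the length used. On merged exons, the Control level of Myh3 was 7.55 ± 2.03 scaled reads per kilobase and that of Myl4 8.23 ± 1.54, with overlapping ranges. Tnnt2 stood lower there, at 3.15 ± 1.21. In mdx the order on merged exons was Myh3 at 418 ± 262, Myl4 at 116 ± 38.6 and Tnnt2 at 25.1 ± 11. The range of Myl4 (65.6 to 151) reached just above the lowest Myh3 library (149). Whether the order holds on other lengths was not tested. Embryonic myosin remained a small part of the myosin message. Per kilobase, Myh3 was 0.00835% to 0.0173% of Myh4 in Control, 0.445% to 1.58% in mdx and 0.178% to 2.45% in mdx/miR-133b-/-.

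Other listed genes of developing and regenerating fibres rose as well. A list of 20 developmental sarcomere genes has 7 that are listed. The 4 that are not members (Tnni1, Tnnt1, Myl6b and Ankrd1) all rose in mdx, with a median log2 difference of 2.15. Ankrd1 did not vary as the members did. Its SD on the log2 scale was 0.088 in mdx, and it was highest in mdx/miR-133b-/- replicate 4 (5139 scaled reads, against 1456 in replicate 1). Tnni1, the slow troponin I also made in embryonic fibres, rose 16-fold (log2 4.00, SE 0.62), and Tnnt1, slow troponin T, rose 4.15-fold (log2 2.05, SE 0.48). Of 22 regenerating fibre genes 9 are listed, and all 9 rose, with a median of 1.76. Chrng, the fetal subunit of the muscle acetylcholine receptor, rose 9.04-fold, Ncam1, a cell adhesion molecule of regenerating and denervated fibres, 3.42-fold, and Mymk, the membrane fusion protein myomaker, 3.43-fold. Myog, the transcription factor myogenin, rose 2.34-fold (log2 1.23, SE 0.48, limma adjusted p = 0.0295), and did not pass under relative log expression scaling (log2 0.87). Of these, Tnni1, Tnnt1, Myl6b and Chrng have Control means under the floor, as the members do. The counts are read against the 44.5% of all listed genes called higher, and for genes under the floor against 90.1%. A rise by itself thus does not set those 4 genes apart. The lists were chosen with earlier results of these data known.

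Genes of the adult fast sarcomere list, not all of which code for filament proteins, went the other way. Of 25 in that list 6 are listed, and 3 fell: Myh4 (log2 -0.60, limma adjusted p = 0.0472), Ckm (-0.45) and Mylk2 (-0.47), a kinase. Actn3, Tpm1 and Pvalb stood at -0.52, -0.24 and -0.22 and did not pass. Under relative log expression scaling Actn3 (-0.88) and Tpm1 (-0.60) passed as well, and Actn3 also did under upper quartile scaling (-0.59). Of all listed genes, 21.7% were called lower. Markers of other cells moved with the same contrast. Of 12 macrophage markers 10 are listed and 9 rose, 6 of the 10 having Control means under the floor, and their summed level was 1413 to 1882 scaled reads in Control, 925 to 2376 in miR-133b-/-, 5444 to 8344 in mdx and 3367 to 10577 in mdx/miR-133b-/-. Itgax was listed at 0 in 1 library, miR-133b-/- replicate 3. All 5 listed of 8 fibro-adipogenic and matrix markers rose, from sums of 12027 to 22241 in Control to 38930 to 40729 in mdx. Flt1, the only listed gene of 4 endothelial markers, fell (log2 -0.75, SE 0.19, limma adjusted p = 0.00241), from 1687 to 2039 scaled reads in Control to 856 to 1301 in mdx. The part of these cells in the values of the 3 sarcomere genes was not tested.

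The comparison of miR-133b-/- with Control tested the loss of the microRNA alone, and none of the 3 genes passed. The log2 differences were 0.02 for Myh3 (95% interval -1.27 to 1.32), 0.16 for Myl4 (-0.75 to 1.08) and -0.24 for Tnnt2 (-1.19 to 0.72), with limma adjusted p of 0.993, 0.926 and 0.881. The intervals leave room for a change of about the sizes at their ends, which for Myh3 is 2.49-fold higher. limma called 0 of the 831 genes here (0.0% called in either direction; 84 at an unadjusted p under 0.05), and limma-voom on reads also called 0. For Myh3 the sign was not stable: replicate 1 of miR-133b-/- stood at 131 against 30.8 to 33.5 in the other 3, and without it the log2 difference was -0.48. It was also below 0 without Control replicate 3 (-0.078) or 4 (-0.068). Myl4 and Tnnt2, at 45 and 21 scaled reads, lay inside the range of their group in that library.

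Removal of miR-133b from dystrophic muscle is read from mdx/miR-133b-/- against mdx. Myh3 went from 2533 ± 1588 to 1976 ± 2007 scaled reads (log2 -0.70, 95% interval -1.99 to 0.59, limma adjusted p = 0.469), and did not pass. Myl4 went from 539.9 ± 179 to 530.0 ± 539 (log2 -0.43, interval -1.35 to 0.48, limma adjusted p = 0.535). Tnnt2 went from 194 ± 85.3 to 223 ± 207 (log2 -0.07, interval -1.02 to 0.89, limma adjusted p = 0.944). The means of Tnnt2 on the linear scale and its log2 difference have opposite signs, since 1 library of the double mutant is far above the others. In this comparison 19.5% of listed genes were called in either direction and 12.0% were called lower.

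Replicates 1 and 2 of mdx/miR-133b-/- both weighed on how these values read. Without replicate 1 the log2 differences were -1.34 for Myh3, -1.04 for Myl4 and -0.60 for Tnnt2, and Myl4 then passed (limma adjusted p = 0.0269, against 0.0269 to 0.989 over its alternatives). Without replicate 2 of the same genotype, the lowest library, they were -0.05, -0.0098 and 0.23. The ratios between members also did not differ between mdx and mdx/miR-133b-/- beyond their spread. The ratio of Myh3 to Tnnt2 differed by -0.63 on the log2 scale and that of Tnnt2 to Myl4 by 0.37 (adjusted exact permutation p = 0.257 each), and Myh3 to Myl4 by -0.26 (0.514). None of the 4 other genes of the developmental sarcomere list or the 9 regenerating fibre genes passed here. Of the 6 genes of the adult fast sarcomere list 5 fell, among them Actn3, a fast-fibre actinin (log2 -0.90), and Mylk2, the skeletal myosin light chain kinase (-0.87). Of all listed genes, 12.0% were called lower here. The double mutant is also part of the contrast that selected the genes, where all 6 were lower (log2 -0.80 to -1.21). The direction of these falls is therefore partly set by the selection.

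The double mutant also stood above Control in all 3 genes. Myh3 was 28.7-fold higher (log2 4.84, SE 0.62), Myl4 9.84-fold (3.30, SE 0.44) and Tnnt2 7.24-fold (2.86, SE 0.46), with limma adjusted p of 7.24e-06, 9.3e-06 and 4.27e-05. Here 54.3% of listed genes were called higher, and 94.3% of the 141 with Control means under the floor. As in mdx against Control, the direction is partly set by the selection, and the tests are given with that limit. The double mutant is also 1 side of the contrast that selected the genes. Both comparisons with Control share the Control libraries. Against miR-133b-/-, the contrast in which the listed genes were selected, the log2 differences of the double mutant were 4.82, 3.13 and 3.09, with no test. The interaction, which asks whether the loss of miR-133b acted differently with and without dystrophin, was -0.72 for Myh3 (95% interval -2.55 to 1.10), -0.60 for Myl4 (-1.89 to 0.69) and 0.17 for Tnnt2 (-1.18 to 1.53). None passed (limma adjusted p = 0.668, 0.601 and 0.910), where 0.963% of listed genes did.

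**Figure D3:**
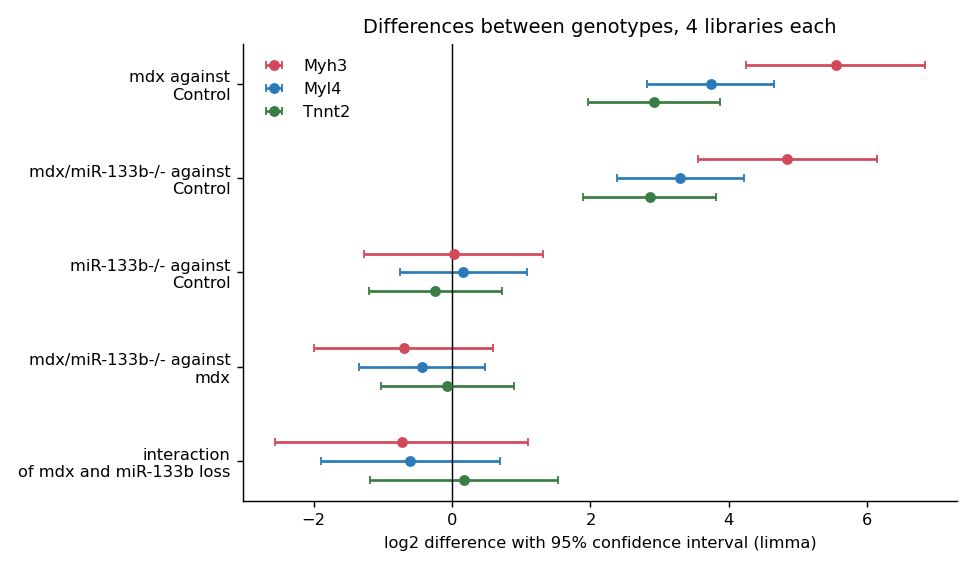
log2 differences of the 3 members (horizontal axis) in 4 comparisons of genotypes and the interaction; points are limma estimates from 4 libraries per genotype and bars their 95% confidence intervals. Intervals of the 2 comparisons of mdx-carrying muscle with Control lie above 0, and those of the other 3 include 0.

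In order of level, Myh3 was highest in mdx, then mdx/miR-133b-/-, miR-133b-/- and Control by group mean, and Myl4 followed the same order. For Tnnt2 the order was mdx/miR-133b-/-, mdx, Control and miR-133b-/-. Neighbours within the 2 groups with the mutation, and within the 2 without it, did not differ beyond their spread for any of the 3 genes.

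The members were among the most variable listed genes in muscle with the mutation. The SD of Myh3 between the 4 mdx libraries was 1.04 on the log2 scale, larger than that of 99.6% of listed genes, whose median SD was 0.21. Myl4 (0.54) and Tnnt2 (0.65) exceeded 95.5% and 97.8% of them. In mdx/miR-133b-/- the SDs were 1.58, 1.3 and 1.12, against a median of 0.38, and in Control they were 0.37, 0.26 and 0.60, against 0.27. In miR-133b-/- Myh3 was about as variable as in mdx, with an SD of 1.01, larger than that of 94.2% of listed genes, and its replicate 1 stood far above the other 3. Myl4 (0.33) and Tnnt2 (0.26) were there below the median SD of 0.43. From the lowest to the highest library of the double mutant, Myh3 differed 14.6-fold, Myl4 8.51-fold and Tnnt2 5.76-fold. These are descriptions of 4 libraries each, with no test.

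That variation was shared. Over the 8 libraries with the mutation, the log2 values of Myh3 and Myl4 had a Pearson r of 0.943 (exact permutation p = 0.000422) and a Spearman rho of 0.905 (exact permutation p = 0.00456). Myh3 and Tnnt2 had an r of 0.897 (exact permutation p = 0.00193) and a rho of 0.929 (exact permutation p = 0.00223), and Myl4 and Tnnt2 an r of 0.943 (exact permutation p = 0.000298) and a rho of 0.929 (exact permutation p = 0.00223). Adjusted over the 3 pairs, the p-values of r were 0.000632, 0.00193 and 0.000632, and those of rho 0.00456, 0.00335 and 0.00335 (exact permutation tests). Without the 2 libraries farthest from the median, replicates 1 and 2 of mdx/miR-133b-/-, r was 0.896, 0.951 and 0.891 over 6. On deviations from the mean of each genotype, r was 0.940, 0.925 and 0.963 over the 8. The points share their scaling factor, which moves all genes of a library together, and the median r of Myh3 with the other listed genes over these libraries was 0.18.

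Genes most like the members over the 8 libraries are given by Pearson r of log2 values, as a description. For Myh3 they were Chrna1 (0.981), Chrng (0.979), Tnnt1 (0.975), Fcgr2b (0.962) and Tnni1 (0.959). Chrna1 and Chrng are subunits of the acetylcholine receptor and Fcgr2b is an inhibitory antibody receptor of immune cells. For Myl4 they were Tnnt1 (0.970), Myog (0.959), Ppfia4 (0.952), Tcap (0.951), which encodes the titin cap protein, and Me2 (0.946). For Tnnt2 they were Tnnt1 (0.957), Apoe (0.944), Myl4 (0.943), Tcap (0.927) and Me2 (0.919). Over all 16 libraries, where the contrast of mutation against none dominates, Myl4 and Tnnt2 were each other's nearest gene (r = 0.976). Myh3 came nearest to Fcgr2b (0.979), then Myl4 (0.976), Tnnt2 (0.968), Npnt (0.963) and Ncam1 (0.960). The remaining genes nearest to Myl4 were Myh3, Fcgr2b, Ncam1 and C1qb (0.976 to 0.962), and those nearest to Tnnt2 were Myh3, Cx3cr1, Npnt and Ncam1 (0.968 to 0.960).

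The macrophage sum followed the members in some of these libraries and not in others. It was lowest in mdx/miR-133b-/- replicate 2 (3367 scaled reads), the library lowest in all 3 members. It was highest in replicate 3 of that genotype (10577), where Myh3 stood at 1180, below its level in 5 of the 8, and 9533 in replicate 1, which was highest in all 3 members. Lyz2 made up most of the sum in each of the 8, with 7410 in replicate 3 and 6771 in replicate 1. The macrophage markers did not all peak in the same library, so the sum mainly describes Lyz2. The part of these cells in the spread of the members was not tested.

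**Figure D4:**
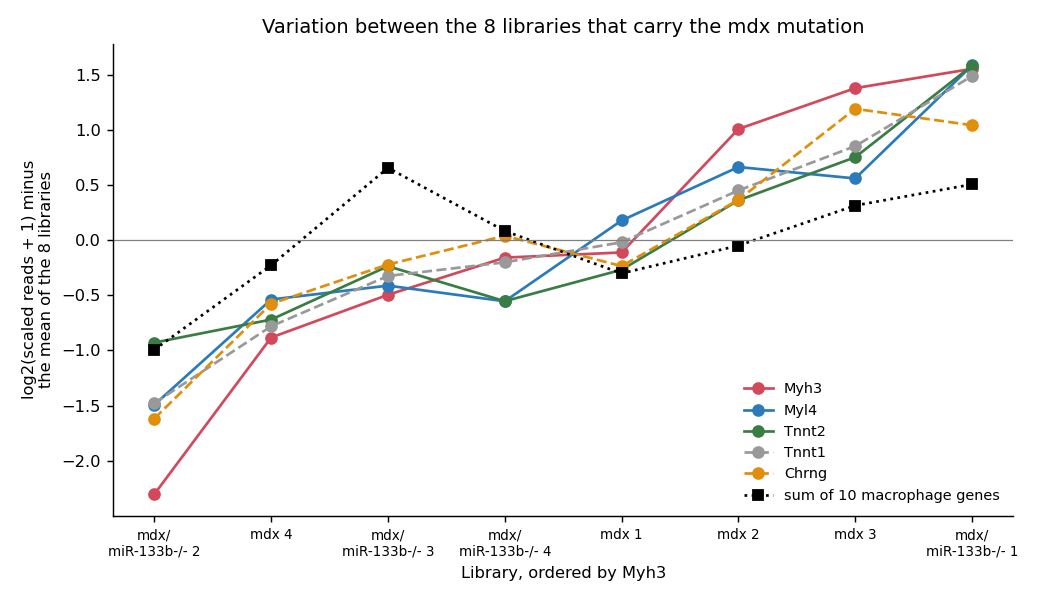
log2(scaled reads + 1) minus the mean of the 8 libraries with the mdx mutation (vertical axis), for the 3 members, Tnnt1, Chrng and the sum of 10 listed macrophage genes; libraries are ordered by Myh3 along the horizontal axis and lines join the values of 1 gene. The members, Tnnt1 and Chrng rise from mdx/miR-133b-/- replicate 2 to replicate 1, while the macrophage sum, most of it Lyz2, is highest in replicate 3 of that genotype.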

How the data were processed

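Tibialis anterior RNA was isolated with a Bio-Rad kit and treated with DNase, per the labels' protocols. The submitters' processing notes name HISAT2, HTSeq and the build GRCm38; their versions, settings and use of strand are not given here in any source. The deposited table holds a signal value per gene and library: counts of reads after scaling by the authors with a single factor per library (0.459 to 1). This was read from the values themselves, since dividing by the factor gave whole reads to within 0.001 for 100% of values. Columns were matched to groups by the code in the title; for 14 of 16 samples the description holds a different code. All 831 identifiers matched GENCODE M21, and the lowest mean over 16 libraries was 50.1. Libraries of a group differed far beyond counting noise in all 24 pairs (chi-square per degree of freedom at least 38.4).

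Log2(value + 1) was fitted with limma 3.58.1 in R 4.3.3, with 1 mean per genotype over all 16 libraries, a variance trend, no filter, and Benjamini-Hochberg adjustment over 831 genes at 0.05. The procedure was tested on simulated data. Fold changes are on that scale, which understates changes of low genes. Ratios and correlations used exact permutation tests. Promoter and microRNA sequences are from RefSeq (GRCm38.p6). The members, gene lists and tests were chosen with earlier results of these data known. The 3 members are always named, listed genes of the developmental, regenerating and adult fast lists may be, and nearest genes are the 5 with the highest r, without predicted models.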

Additional observations from a re-analysis of the deposited data

Results flagged for a closer look

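In 12 groups of 4 values (3 genes in 4 genotypes), 3 had 1 library far from the others by Dixon's test on scaled reads without logs. For independent normal values chance flags about 1 in 20, but these values need not be normal, and log2 values were not put to this test. Since the members varied together, flags in the same library are not separate events, and the count is not read against that rate. Myh3 in miR-133b-/- replicate 1 was 131 scaled reads, its gap to the next library being 0.973 of the range of the group. Myl4 in mdx/miR-133b-/- replicate 1 was 1331 (gap 0.850 of the range), and Tnnt2 in the same library was 531 (0.869). Myh3 was also highest there, at 4896, and was not flagged.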

How the results depend on the processing

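The rises of the 3 genes in mdx and in mdx/miR-133b-/- over Control kept their direction and call in all 156 alternative values, 60 of which did not leave out a library. Their Control means are under the floor of the list, so the direction is partly set by the selection. The alternatives all start from that selected list, so they cannot test this. Of the other results, limma-voom turned Myh3 in miR-133b-/- against Control to -0.18, relative log expression factors turned the interaction of Tnnt2 to -0.020, and a pseudocount of 10 brought the Tnnt2 to Myl4 ratio in mdx (-0.94) past the threshold. Genes called in mdx/miR-133b-/- against mdx went from 162 to 55 after removal of a trend on GC content and length. Genes called in the interaction went from 8 to 4 with a minimum mean of 100, to 14 with relative log expression factors and to 5 after that removal. The cause was not tested. With 1 library left out, the log2 difference ranged from -0.48 to 0.21 for Myh3 in miR-133b-/- against Control, and in mdx/miR-133b-/- against mdx from -1.04 to -0.0098 for Myl4 and from -0.60 to 0.23 for Tnnt2. The interaction of Tnnt2 ranged from -0.37 to 0.47. Calls ranged from 49 to 197 in mdx/miR-133b-/- against mdx (71, 56 and 84 without mdx 1, 3 and 4; 70 and 49 without mdx/miR-133b-/- 3 and 4) and from 7 to 110 in the interaction (110 without miR-133b-/- 2; 15 without mdx/miR-133b-/- 1). Same-numbered libraries did not visibly deviate together (r over 0.1 in 2 of 24 pairs, and 6 of 48 best matches were to the own number). The labels do not say what the numbers mark, and low correlations over a selected list cannot show that they mark no pairing. A replicate block left every member's call as it was, with calls of 541 against 550 in mdx against Control and 120 against 162 in mdx/miR-133b-/- against mdx. The planned edgeR and DESeq2 fits were not run, since the table holds scaled values. Low read numbers limit Tnnt2 outside the mdx genotypes.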
